A study of Rattus norvegicus with 18 samples.

Results

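The 10 genes described here are feedback inhibitors and transcriptional effectors of the ERK pathway: the phosphatases Dusp4, Dusp5 and Dusp6, the Sprouty proteins Spry1, Spry2 and Spry4, the Sprouty-related proteins Spred1 and Spred2, and the ETS transcription factors Etv4 and Etv5. They were chosen by symbol, as 10 of the 32623 genes listed for rat bone marrow mesenchymal stem cells (MSCs) sequenced in bulk. The cells came from the bone marrow of SD rats at an age of 2 months, either wild type (WT) or with a miR-337-/- genotype (KO), and were used at passage 3. After 8 h without serum they stayed serum starved (SSt), received fetal bovine serum (FBS), or were put under 10% cyclic mechanical stretch (CMS). The labels give 24 h for the treatments, and the methods of the study state a shorter time. Each of the 6 groups of genotype and treatment held 3 libraries, 18 in all. Nothing in the labels ties the 3 libraries of a group to separate rats or cultures, so each p-value measures the spread between these libraries, which may be technical. The cells had been obtained by plating whole marrow and keeping what adhered, the labels give the rats themselves as miR-337-/-, and all WT libraries stand in one table and all KO libraries in another. A difference between KO and WT therefore cannot be told apart from a difference between the cultures or runs behind those tables. The Mir337 gene itself had no count in any library, so the tables do not check the knockout.

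Growth factor receptors activate RAS and the RAF, MEK and ERK kinases in turn, and active ERK switches on genes that then restrain it. DUSP6 and DUSP5 remove phosphate from ERK in the cytoplasm and the nucleus, respectively, DUSP4 does so in the nucleus, Sprouty proteins interfere upstream of RAF, and SPRED proteins bring neurofibromin to RAS. Etv4 and Etv5 are ETS factors induced by fibroblast growth factor and other receptor signals, and the level of the whole set is widely read as a sign of recent ERK output.

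Promoter windows of 300 bases, from 250 bases before to 50 bases after the annotated start in RefSeq on the GRCr8 build, were on hand for 8 of the 10 genes in 9 windows, and not for Dusp4 and Etv4. Those of Dusp5, Dusp6 and Etv5 are shown as examples of genes that fell (Dusp5 and Dusp6) or rose (Etv5) with both treatments. Other genes with a window, such as Spry2, also fell with both, and their windows are not shown. In the Dusp5 window (chr1:262543524-262543823, plus strand) the capitals mark CArG boxes, the site of serum response factor. In the Dusp6 (chr7:35979354-35979653, plus strand) and Etv5 (chr11:92113013-92113312, plus strand) windows they mark GGAA on either strand, the core of ETS sites. The mature miR-337-3p (chr6:134321201-134321223, plus strand) is shown as the product of the deleted gene, with its seed, bases 2 to 8, in capitals.
Dusp5: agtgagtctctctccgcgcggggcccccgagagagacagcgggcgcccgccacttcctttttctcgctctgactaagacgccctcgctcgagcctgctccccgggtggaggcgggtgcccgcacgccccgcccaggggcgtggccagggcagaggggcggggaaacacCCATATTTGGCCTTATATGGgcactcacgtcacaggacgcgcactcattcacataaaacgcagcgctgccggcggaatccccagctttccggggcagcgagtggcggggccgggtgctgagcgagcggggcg
Dusp6: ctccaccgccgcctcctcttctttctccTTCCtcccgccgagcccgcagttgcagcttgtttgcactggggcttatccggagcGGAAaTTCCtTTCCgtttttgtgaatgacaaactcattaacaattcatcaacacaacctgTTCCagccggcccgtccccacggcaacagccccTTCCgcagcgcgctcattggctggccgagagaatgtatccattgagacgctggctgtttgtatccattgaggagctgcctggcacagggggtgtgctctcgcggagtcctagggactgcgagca
Etv5: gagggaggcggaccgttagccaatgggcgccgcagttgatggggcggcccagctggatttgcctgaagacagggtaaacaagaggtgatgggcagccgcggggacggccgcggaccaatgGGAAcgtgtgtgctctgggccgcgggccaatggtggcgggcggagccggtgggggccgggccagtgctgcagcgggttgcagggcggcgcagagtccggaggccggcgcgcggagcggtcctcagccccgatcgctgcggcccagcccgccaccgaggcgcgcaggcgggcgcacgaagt
rno-miR-337-3p: uUCAGCUCcuauaugaugccuuu

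The Dusp5 window held 2 adjacent CArG boxes, at positions -82 to -73 and -72 to -63 from the start site. It was the only 1 of the 9 windows with such a box, which 548 of 33469 rat promoter windows held (1.64%). GGAA stood in 8 of the 9 windows, all but that of Spry1, and in 95.8% of all windows, so it sets none of the genes apart. It occurred 6 times in the Dusp6 window and 1 time in that of Etv5. The longer ETS motif CCGGAA, which contains GGAA, was found in Dusp5, Spry2 and Spry4 and in 15.0% of all windows. CCGGAAGT, which contains both, stood in none of the 9 windows and in 3.81% of all windows, and the AP-1 site TGACTCA in none and in 4.63%. Both strands were searched, a match is a description of letters and not of binding, and no match says only that the letters are not in the window.

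The libraries held 56083000 to 71847969 counts. Levels are given as FPKM, fragment counts scaled to transcript length and library size, which allow genes to be compared with each other. Of the 12 MSC markers, 10 or 11 were at 1 FPKM or more in each group, and Lepr had no count in the SSt and CMS libraries of WT cells. All 12 macrophage and blood markers were also at 1 FPKM or more in all groups, while 1 of 7 endothelial markers was. The summed level of the macrophage and blood markers moved with treatment: in WT cells it was 3640 to 3790 FPKM in SSt, 6280 to 6630 in FBS and 6040 to 6360 in CMS, and in KO cells 2200 to 2310, 4080 to 4990 and 4100 to 4440. The 6 cycling markers, which serum withdrawal is known to lower, were highest in the libraries labelled SSt: they summed to 148 to 160 FPKM in WT cells, against 79.4 to 81.8 in FBS and 78.8 to 82.2 in CMS, and to 265 to 301 FPKM in KO cells, against 24.2 to 68.7 and 17.6 to 26.0. Every direction below is drawn between libraries as labelled, and the part of these markers in it was not tested. No value in the tables settles whether the SSt libraries came from the starved cells. If the SSt and FBS labels were exchanged, the directions of FBS against SSt would turn. Those of stretch against SSt would become the ones given below for stretch against FBS. An exchange in both genotypes would also turn the differences between WT and KO responses to FBS. KO over WT under starvation and in FBS would trade places. The WT and KO differences for stretch would become differences of stretch against FBS, which were not fitted. In bulk RNA, fewer cells of a type and less RNA per cell cannot be told apart. In KO FBS replicate 1, 3.03% of tested genes stood at no more than 0.5 times both other replicates, against 0.551% to 0.962% in the other 17 libraries, so the main results that rest on it are given without it as well. By another measure, the chi-square of counts per degree of freedom between 2 libraries, KO CMS replicate 1 stood apart too. It was 53.18 and 64.76 against its group's other replicates and 23.93 between those. For KO FBS replicate 1 it was 108.9 and 139.4. Some stretch results of Dusp5 and Spred1 are also given without KO CMS replicate 1.

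Most of the inhibitors were highest in serum-starved cells and lower with both FBS and stretch, in both genotypes. Etv5 went the other way in both genotypes, and Spred1 did so in WT cells. In KO cells the rise of Spred1 was small with FBS and not past the threshold with stretch. Dusp4 was at 0.151 to 0.34 FPKM in all 18 libraries and fell below the filter of 1 FPKM in at least 3 libraries, so 9 of the 10 genes were tested. At an adjusted p under 0.05 by edgeR, 2 rose and 6 fell in WT cells with FBS, where 33.7% of 12916 tested genes rose and 32.7% fell. With stretch 2 rose and 7 fell in WT cells, where 34.6% of all genes rose and 32.3% fell. In KO cells 2 rose and 6 fell with FBS (30.3% and 29.5% of 12888 genes), and 1 rose and 7 fell with stretch (30.8% and 30.7%). Over all genes 3972 rose and 3952 fell in KO cells with stretch, but 3225 and 4923 by limma on log2(FPKM + 1), which scales by the library total alone. Without KO FBS replicate 1 the count for FBS in KO cells was 1 higher and 7 lower.

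Asking besides for a fold of at least 2, Etv5 rose and Dusp5, Spry4 and Etv4 fell in WT cells with FBS, where 8.95% of all genes rose and 7.14% fell that far. With stretch the same 4 genes passed in WT cells, and Dusp6 joined them at a log2 fold change of -1.01 (-1.04 to -0.97 with 1 library left out), with 8.66% of all genes higher and 8.02% lower. In KO cells Dusp5 and Spry4 fell that far with FBS and none rose (9.47% of all genes higher, 7.67% lower), and Dusp6, Spry4 and Etv4 fell with stretch (9.56% higher, 9.66% lower). The median log2 fold change of the 9 genes was -0.66 with FBS and -0.92 with stretch in WT cells, and -0.54 and -0.88 in KO cells. Over all genes it lay between 0.00 and 0.02. The FBS and CMS comparisons of a genotype share their SSt libraries, so they are not independent of each other.

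**Figure D1:**
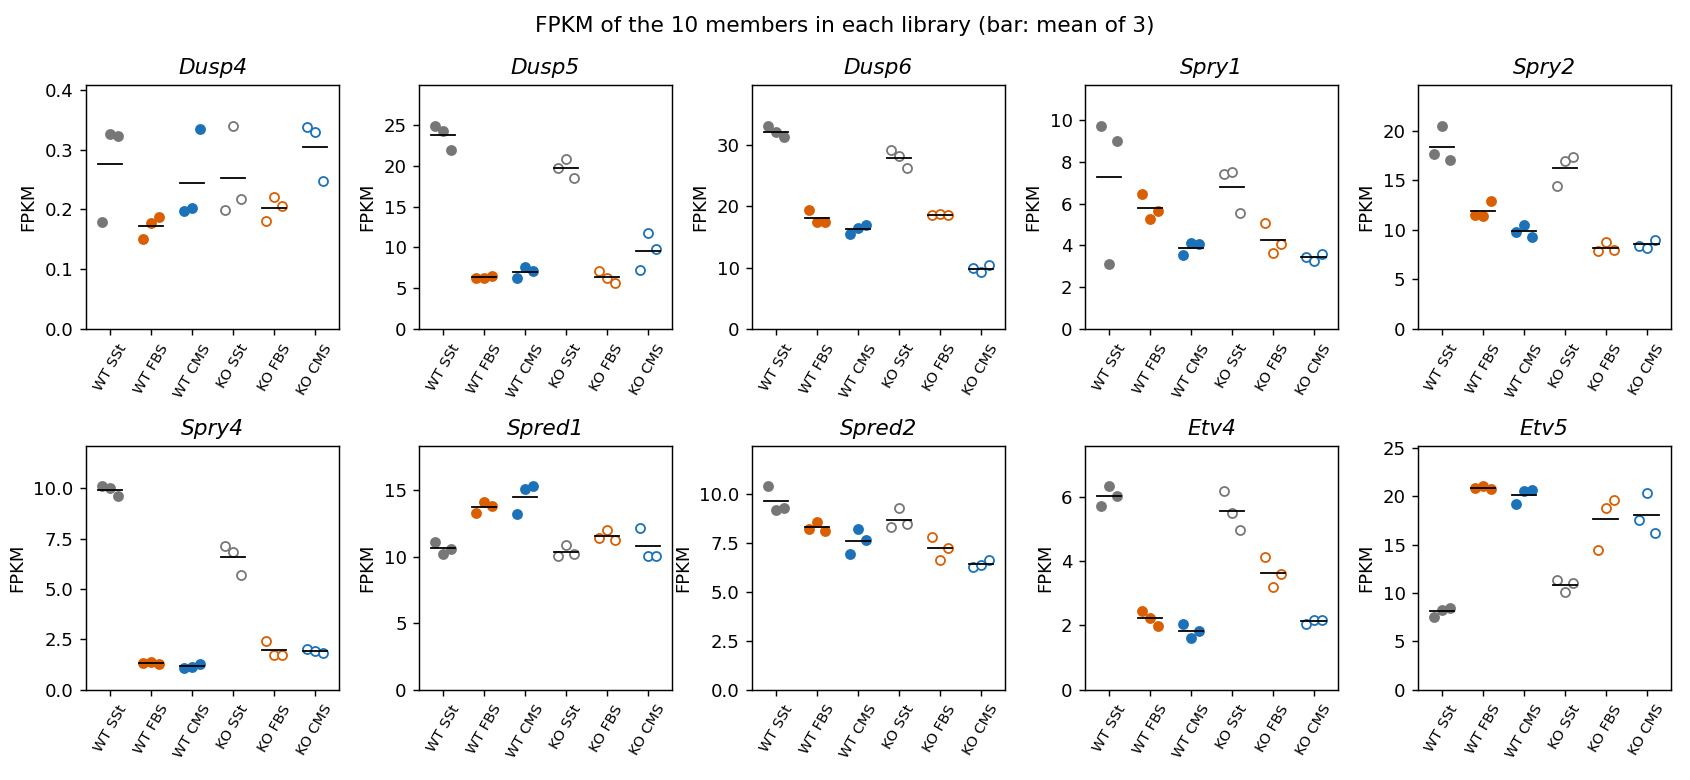
FPKM (y axis, from 0, a scale for each gene) of the 10 genes in each of the 18 libraries by group, filled points WT and open points KO, with a bar at the mean of 3. Spry4, Dusp5, Dusp6 and Etv4 stand highest in both SSt groups and Etv5 lowest, and 1 WT SSt library of Spry1, at 3.11 FPKM, lies far below the other 2.

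Dusp5, the nuclear ERK phosphatase whose window held the CArG boxes, was at 24.9, 24.3 and 21.9 FPKM in WT SSt replicates 1 to 3, at 6.31, 6.2 and 6.46 FPKM in FBS and at 6.25, 7.56 and 7.09 FPKM under stretch. All starved libraries lay above all treated ones, and FBS and stretch overlapped. Its level was 3.84-fold lower with FBS (log2 fold change -1.94 ± 0.0749 SE, adjusted p = 9.32e-09) and 3.46-fold lower with stretch (-1.79 ± 0.0745, adjusted p = 1.53e-08). KO cells held 19.7, 20.8 and 18.5 FPKM in SSt, 7.12, 6.26 and 5.7 FPKM in FBS and 7.27, 11.8 and 9.75 FPKM under stretch. Here too the starved libraries stood above the treated ones, but the 3 stretched libraries spread widely. The fall was 2.96-fold with FBS (-1.56 ± 0.172, adjusted p = 6.96e-05, and -1.67 without KO FBS replicate 1) and 1.89-fold with stretch (-0.92 ± 0.169, adjusted p = 0.00131, and -0.75 without KO CMS replicate 1).

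Dusp6, the cytoplasmic phosphatase specific for ERK, was the most abundant of the 10 genes in starved cells, at 33.1, 32.0 and 31.2 FPKM in WT libraries. It was at 19.3, 17.4 and 17.5 FPKM in WT cells with FBS and at 15.4, 16.5 and 16.9 FPKM under stretch. No treated library reached a starved one, and every stretched library lay below every FBS library. The fold was 1.82 lower with FBS (log2 fold change -0.86 ± 0.0527, adjusted p = 2.66e-07) and 2.01 lower with stretch (-1.01 ± 0.0529, adjusted p = 8.59e-08). KO cells were at 29.2, 28.1 and 26.2 FPKM in SSt, 18.5, 18.8 and 18.5 FPKM in FBS and only 9.93, 9.23 and 10.4 FPKM under stretch. The 3 KO groups did not overlap, and the stretched KO libraries were the lowest of all 18. The decrease in KO cells was 1.44-fold with FBS (-0.52 ± 0.0643, adjusted p = 0.000138, and -0.54 without KO FBS replicate 1) and 2.61-fold with stretch (-1.39 ± 0.0654, adjusted p = 4.63e-07).

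Spry4, a Sprouty inhibitor that is itself an ERK target, changed the most of the 10 genes. WT cells had 10.1, 10.0 and 9.64 FPKM in SSt, 1.33, 1.39 and 1.28 FPKM in FBS and 1.07, 1.13 and 1.3 FPKM under stretch. The treated libraries overlapped each other far below the starved ones. Its level was 7.63-fold lower with FBS (log2 fold change -2.93 ± 0.0767, adjusted p = 7.77e-10) and 8.63-fold lower with stretch (-3.11 ± 0.0775, adjusted p = 5.38e-10). KO cells started lower and ended higher, with 7.16, 6.86 and 5.69 FPKM in SSt, 2.43, 1.75 and 1.71 FPKM in FBS and 2.03, 1.92 and 1.82 FPKM under stretch. Every starved KO library lay below every starved WT library, and every treated KO library above every treated WT library. The falls in KO cells were 3.21-fold with FBS (-1.68 ± 0.159, adjusted p = 3.02e-05, and -1.88 without replicate 1 of that group) and 3.17-fold with stretch (-1.66 ± 0.159, adjusted p = 2.46e-05).

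Spry2, which inhibits receptor signalling upstream of RAF and holds back CBL-driven loss of the EGF receptor, was at 17.6, 20.5 and 17.0 FPKM in WT SSt libraries, 11.5, 11.4 and 12.9 FPKM in FBS and 9.82, 10.5 and 9.24 FPKM under stretch. These 3 groups did not overlap. It fell by 0.66 ± 0.0837 on the log2 scale with FBS (adjusted p = 6.4e-05) and by 0.92 ± 0.0843 with stretch (adjusted p = 5.34e-06). In KO cells it was at 14.4, 16.9 and 17.3 FPKM in SSt, 7.89, 8.73 and 7.93 FPKM in FBS and 8.38, 8.18 and 9.02 FPKM under stretch. FBS and stretch overlapped in KO cells, both well below SSt. The log2 fold changes in KO cells were -0.93 ± 0.0856 (adjusted p = 2.68e-05, and -0.92 without KO FBS replicate 1) and -0.81 ± 0.0854 (adjusted p = 4.39e-05).

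Spry1 turned on a single library. WT SSt replicates held 9.73, 3.11 and 9.01 FPKM, the second 2.89-fold below the lower of the others, although that library was ordinary over all genes. WT cells had 6.47, 5.26 and 5.64 FPKM in FBS and 3.52, 4.12 and 4.06 FPKM under stretch. The low SSt library lay below all of these. With it, Spry1 did not pass with FBS (log2 fold change -0.37 ± 0.331, adjusted p = 0.356) and fell with stretch (-0.92 ± 0.335, adjusted p = 0.0329). Without it, it fell by 0.74 with FBS (adjusted p = 0.000316) and by 1.3 with stretch (adjusted p = 8.08e-06). The call with stretch held in 4 of 9 fits with 1 library left out (log2 fold change -1.3 to -0.67, adjusted p up to 0.123), and was lost in a fit of only the 2 groups (adjusted p = 0.0578) and by limma on log2(FPKM + 1) (adjusted p = 0.1). KO libraries, with 7.4, 7.52 and 5.53 FPKM in SSt, 5.09, 3.65 and 4.05 in FBS and 3.45, 3.27 and 3.59 under stretch, held no such value. Spry1 fell in KO cells with FBS (-0.61 ± 0.163, adjusted p = 0.0102, and -0.78 without KO FBS replicate 1) and with stretch (-0.88 ± 0.164, adjusted p = 0.00146).

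The SPRED genes moved little and in opposite directions. Spred1, whose product recruits neurofibromin to RAS at the membrane, was at 11.1, 10.2 and 10.6 FPKM in WT SSt libraries, 13.3, 14.1 and 13.8 FPKM in FBS and 13.2, 15.1 and 15.3 FPKM under stretch. Its starved libraries lay below all treated ones. It rose 1.26-fold with FBS (log2 fold change 0.34 ± 0.0652, adjusted p = 0.00112) and 1.35-fold with stretch (0.43 ± 0.0652, adjusted p = 0.000217). KO libraries ran from 10.1 to 10.9 FPKM in SSt, from 11.3 to 12.0 in FBS and from 10.1 to 12.2 under stretch. The FBS rise in KO cells (0.22 ± 0.0827, adjusted p = 0.0487) held in 1 of 9 fits with 1 library left out (adjusted p 0.0177 to 0.146). Without KO FBS replicate 1 it was 0.21 (adjusted p = 0.0917). Stretch gave 0.17 ± 0.0827 in KO cells (adjusted p = 0.113), and 0.08 without KO CMS replicate 1. Spred2, its close relative, ranged in WT cells from 9.19 to 10.4 FPKM in SSt, 8.1 to 8.6 in FBS and 6.93 to 8.21 under stretch, and in KO cells from 8.33 to 9.28, 6.63 to 7.8 and 6.29 to 6.65. It fell with stretch in WT (-0.36 ± 0.0806, adjusted p = 0.00258) and KO cells (-0.32 ± 0.092, adjusted p = 0.0136) and with FBS in WT cells (-0.25 ± 0.0804, adjusted p = 0.0208). With FBS in KO cells it gave -0.21 ± 0.0919 (adjusted p = 0.0814), and -0.28 (adjusted p = 0.0223) without KO FBS replicate 1.

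The ETS factors Etv4 and Etv5, close paralogs of the PEA3 family that are often switched on together, parted. Etv4 was at 5.7, 6.32 and 6.01 FPKM in WT SSt libraries, 2.45, 2.23 and 1.97 FPKM in FBS and 2.03, 1.62 and 1.84 FPKM under stretch. Starved and treated libraries were far apart, and the treated groups overlapped. It fell 2.77-fold with FBS (log2 fold change -1.47 ± 0.122, adjusted p = 2.52e-06) and 3.33-fold with stretch (-1.74 ± 0.123, adjusted p = 7.81e-07). KO libraries held 6.17, 5.49 and 4.96 FPKM in SSt, 4.13, 3.19 and 3.61 FPKM in FBS and 2.06, 2.16 and 2.16 FPKM under stretch. These 3 groups formed separate steps. Etv4 fell 1.46-fold with FBS (-0.54 ± 0.132, adjusted p = 0.00639, and -0.66 without KO FBS replicate 1) and 2.41-fold with stretch (-1.27 ± 0.134, adjusted p = 4.59e-05) in KO cells.

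Etv5, with a single GGAA in its window, was at 7.54, 8.28 and 8.45 FPKM in WT SSt libraries, 20.8, 21.0 and 20.7 FPKM in FBS and 19.2, 20.5 and 20.6 FPKM under stretch. Every treated WT library lay above every starved library of either genotype. It rose 2.51-fold with FBS (log2 fold change 1.33 ± 0.0493, adjusted p = 7.28e-09) and 2.44-fold with stretch (1.29 ± 0.0493, adjusted p = 8.58e-09). In KO cells it stood at 11.3, 10.1 and 11.0 FPKM in SSt, 14.4, 18.8 and 19.6 FPKM in FBS and 17.5, 20.3 and 16.2 FPKM under stretch. The lowest FBS library, replicate 1, was still above the starved ones. The rise was 1.69-fold with FBS (0.76 ± 0.116, adjusted p = 0.000497, and 0.87 without replicate 1) and 1.8-fold with stretch (0.85 ± 0.116, adjusted p = 0.000228).

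**Figure D2:**
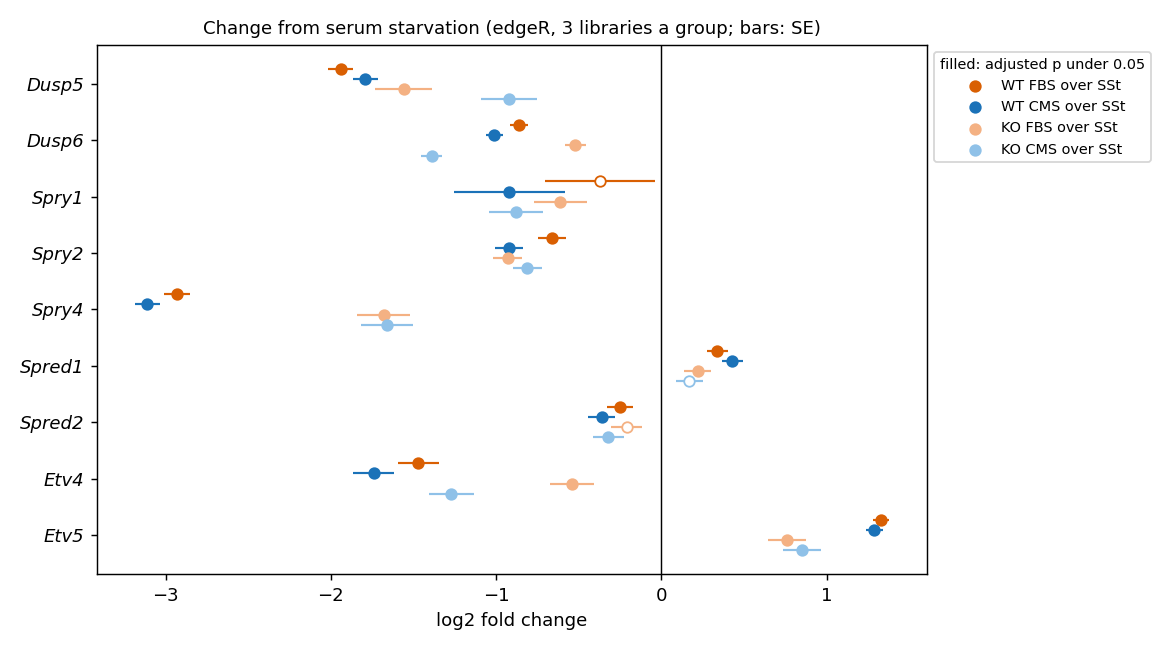
Log2 fold change over SSt (x axis) of the 9 tested genes with FBS (orange) and stretch (blue), WT dark and KO light, with SE bars and filled points where the adjusted p was under 0.05. Spry4 falls furthest, to -3.11 in WT cells with stretch, and Etv5 is the only gene past 1 on the positive side.

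Stretch was also compared with FBS. In WT cells none of the 9 genes passed by edgeR, where 3.91% of all genes were higher and 5.03% lower, and a count that low says nothing particular about these genes. Of the tested genes, Dusp6, Spry1, Spry2 and Etv5 did not overlap between these groups, each being lower under stretch. Spry1 was 1.47-fold lower (log2 fold change -0.56 ± 0.334, adjusted p = 0.354). Dusp4, too low to test, did not overlap either and was higher under stretch (0.151 to 0.187 FPKM in FBS, 0.197 to 0.334 under stretch). The share of all genes without overlap was not counted, so nothing particular to these genes is read from it. Dusp6, Spry2 and Spry4 were at an unadjusted p under 0.05 by edgeR between WT stretch and FBS, with log2 fold changes of -0.14, -0.27 and -0.18. Over all genes 3093 of 12916 were at such a p, so 3 of the 9 says little about these genes. DESeq2 called 1 gene, Spry2 (adjusted p = 0.0245), and limma called 0. Without WT SSt replicate 2, which enters through the shared estimate of the spread, 1 gene passed, Spry1 (-0.56, adjusted p = 0.0147). In KO cells 1 gene was higher under stretch than in FBS and 2 were lower, with 6.73% and 8.09% of all genes (868 and 1042, or 615 and 1156 by limma). Dusp6 was 1.82-fold lower (log2 fold change -0.86 ± 0.0648, adjusted p = 0.00024) and Etv4 1.65-fold lower (-0.72 ± 0.133, adjusted p = 0.00948), with no overlap between the groups. Without KO FBS replicate 1 these were -0.85 and -0.6. Dusp5 was higher by 0.65 ± 0.169 (adjusted p = 0.0366), a call that held in 2 of 9 fits with 1 library left out (adjusted p 0.00783 to 0.118).

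The responses of WT and KO cells were then compared directly, as the WT log2 fold change minus the KO log2 fold change in a fit over all 18 libraries. For FBS, the difference passed for 4 of the 9 genes, 1 above and 3 below 0, where 17.2% and 18.5% of 13317 genes did. For stretch it passed for 5, 2 above and 3 below, where 23.2% and 21.6% did. Over all genes 2293 differences were above and 2460 below 0 for FBS, but 2992 and 2003 under upper-quartile scaling and 3544 and 1834 by limma. For stretch they were 3085 and 2880, but 4068 and 2309 under upper-quartile scaling and 4649 and 2140 by limma, which moved the median of all genes from 0.05 to 0.16. Median differences of the 9 genes were -0.05 for FBS and -0.05 for stretch, against 0.01 and 0.05 over all genes.

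Spry4 fell further in WT than in KO cells, by -1.26 ± 0.179 for FBS (adjusted p = 8.55e-05) and -1.45 ± 0.179 for stretch (adjusted p = 1.39e-05). Etv4 also fell further in WT cells with FBS (-0.94 ± 0.177, adjusted p = 0.000832). Its difference for stretch (-0.47 ± 0.177, adjusted p = 0.0406) passed in 10 of 18 fits with 1 library left out, with adjusted p from 0.0228 to 0.102. Etv5 rose further in WT cells, by 0.56 ± 0.13 for FBS (adjusted p = 0.00378) and 0.44 ± 0.13 for stretch (adjusted p = 0.0128). Dusp5 fell further in WT cells with stretch (-0.88 ± 0.193, adjusted p = 0.00177, and -1.05 without KO CMS replicate 1), while for FBS the difference was -0.39 ± 0.193 (adjusted p = 0.133). Dusp6 differed in opposite directions by treatment: with FBS it fell further in WT cells (-0.35 ± 0.0814, adjusted p = 0.0036), and with stretch further in KO cells (0.37 ± 0.0817, adjusted p = 0.00163). Without KO FBS replicate 1 the FBS differences of Spry4, Etv4, Etv5 and Dusp6 were -1.06, -0.82, 0.45 and -0.34, all past the threshold. Spry1, Spry2, Spred1 and Spred2 did not pass for either treatment in this fit, with differences between -0.11 and 0.26. That of Spred1 for stretch was nearest to the threshold (0.26 ± 0.104, adjusted p = 0.0543). It passed under upper-quartile scaling (0.36, adjusted p = 0.0119), a filter of 5 FPKM (0.28, adjusted p = 0.0338) and limma on log2(FPKM + 1) (0.37, adjusted p = 0.00485), but not under DESeq2. With 1 library left out it passed in 2 of 18 fits, being 0.35 (adjusted p = 0.00598) without KO CMS replicate 1. The FBS difference of Spry2 (0.26, adjusted p = 0.117) passed under upper-quartile scaling (adjusted p = 0.0458) and limma (adjusted p = 0.0347).

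**Figure D3:**
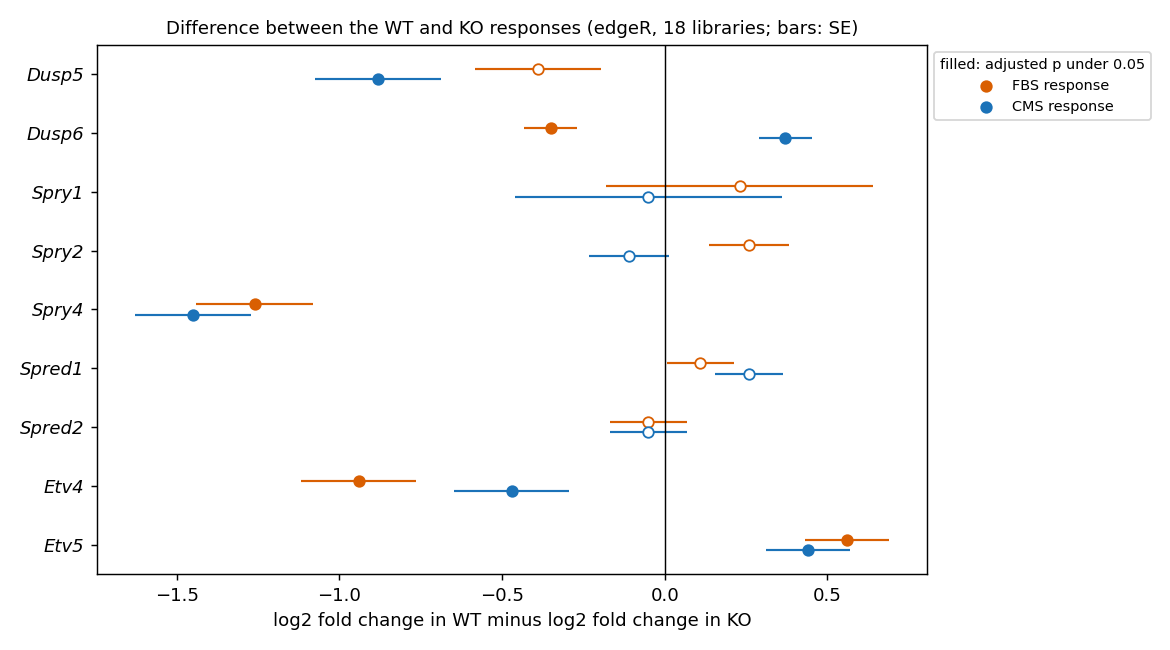
WT minus KO log2 fold change over SSt (x axis) of the 9 tested genes, orange for FBS and blue for stretch, with SE bars and filled points where the adjusted p was under 0.05. Spry4 lies furthest from 0, at -1.26 and -1.45, and the Dusp6 points lie on opposite sides of 0.

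Under starvation, 1 of the 9 genes was higher and 5 were lower in KO than in WT cells, where 24.2% of all genes were higher and 23.2% lower (3221 and 3093, or 4190 and 2462 by limma). Etv5 was 1.27-fold higher (log2 fold change 0.34 ± 0.0923, adjusted p = 0.00683). Spry4 was 1.59-fold lower (-0.67 ± 0.124, adjusted p = 0.000446) and Dusp6 1.21-fold lower (-0.28 ± 0.0574, adjusted p = 0.00105). Dusp5 (-0.34, adjusted p = 0.0483), Spry2 (-0.25, adjusted p = 0.0252) and Spred2 (-0.22, adjusted p = 0.044) were lower by less firm calls: with 1 library left out they passed in 5, 16 and 9 of 18 fits. Spry1 was at -0.17 (adjusted p = 0.663), and at -0.53 (adjusted p = 0.0144) without WT SSt replicate 2.

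In FBS, 2 genes were higher and 2 lower in KO cells (13.5% and 12.3% of all genes, 1795 and 1634, or 1432 and 2012 by limma). Etv4 was 1.68-fold higher (log2 fold change 0.75 ± 0.126, adjusted p = 0.000502, and 0.63 without KO FBS replicate 1) and Spry4 1.51-fold higher (0.59 ± 0.129, adjusted p = 0.00331, and 0.39 without KO FBS replicate 1). Spry2 was 1.43-fold lower (-0.51 ± 0.0873, adjusted p = 0.000575, and -0.51 without KO FBS replicate 1), and Spred1 was lower by 0.21 ± 0.0734 (adjusted p = 0.0459), a call that held in 5 of 18 fits with 1 library left out (adjusted p 0.0168 to 0.137). Under stretch 2 genes were again higher and 2 lower (18.7% and 21.0% of all genes, 2488 and 2798, or 1823 and 3574 by limma). Spry4 was 1.72-fold higher (0.78 ± 0.129, adjusted p = 0.000219) and Dusp5 1.45-fold higher (0.53 ± 0.138, adjusted p = 0.00624, and 0.7 without KO CMS replicate 1). Dusp6 was 1.57-fold lower (-0.65 ± 0.0583, adjusted p = 8.34e-07) and Spred1 1.29-fold lower (-0.36 ± 0.0734, adjusted p = 0.00112, and -0.45 without KO CMS replicate 1). Spry4 was the only 1 of the 9 genes past the threshold in all 3 treatments, lower in KO cells when starved and higher when treated, although its FBS call was lost in a fit of only the 2 groups (0.59, adjusted p = 0.0754).

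**Figure D4:**
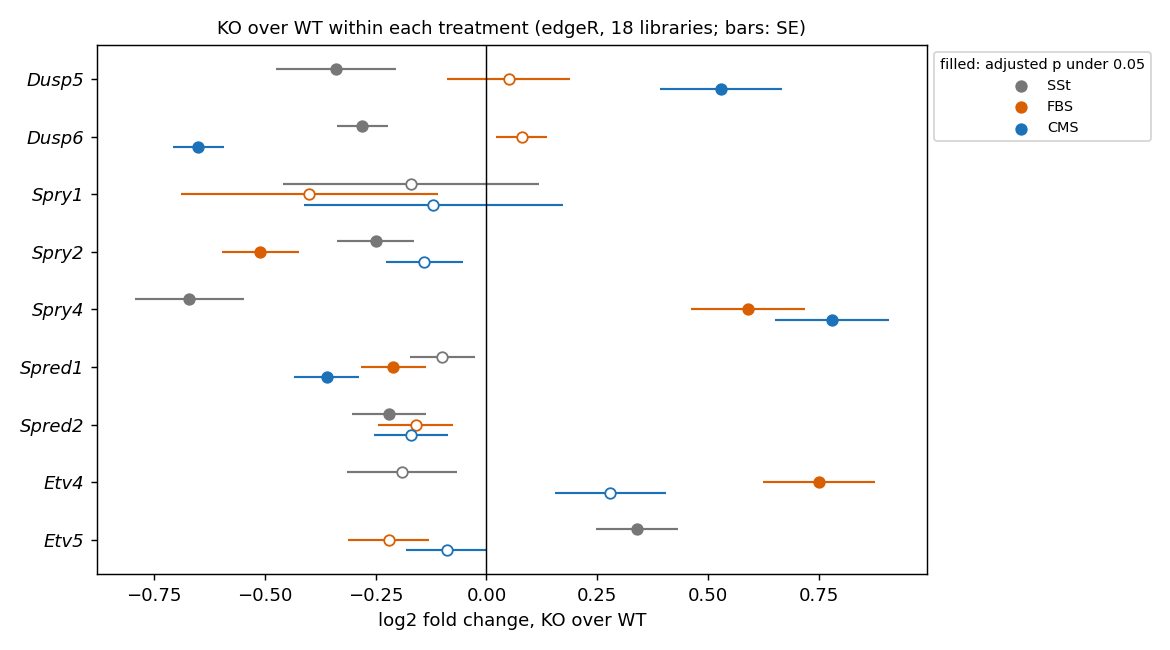
Log2 fold change of KO over WT (x axis) of the 9 tested genes in SSt (grey), FBS (orange) and CMS (blue), with SE bars and filled points where the adjusted p was under 0.05. Spry4 lies at -0.67 in SSt and at 0.59 and 0.78 in FBS and CMS.

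Other genes of the pathway were counted in lists by function. The shares of all genes to read these counts against are, for genes that rose and fell, 33.7% and 32.7% in WT cells with FBS, 34.6% and 32.3% with stretch, 30.3% and 29.5% in KO cells with FBS and 30.8% and 30.7% with stretch. At a fold of at least 2 besides, the shares in WT cells are 8.95% and 7.14% with FBS and 8.66% and 8.02% with stretch. Of the other MAP kinase phosphatases, 11 in all and 9 tested, 6 fell and 2 rose in WT cells with FBS. Of these 6, 5 fell by at least 2-fold, and the median log2 fold change of the 9 was -1.38. With stretch the counts were the same and the median was -1.18. Dusp1, the immediate-early nuclear phosphatase, went from 127.0 ± 1.93 FPKM (SD, n = 3) in starved WT cells to 28.2 ± 0.583 with FBS (log2 fold change -2.21, adjusted p = 3.27e-10). Dusp2, an inducible nuclear ERK phosphatase, fell by 2.84 (adjusted p = 3.25e-06), Dusp14 by 1.8 (adjusted p = 1.55e-05) and Dusp16, which acts on JNK and p38, by 1.43 (adjusted p = 5.68e-06). In KO cells 3 rose and 5 fell with FBS, and 4 rose and 4 fell with stretch, with Dusp2 higher there by 2.13 (adjusted p = 0.0032).

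Of 12 tested genes among 14 other brakes of the pathway, 7 fell and 4 rose in WT cells with FBS, 7 fell and 5 rose with stretch, and in KO cells 4 fell and 3 rose with each. Errfi1, an inhibitor of the EGF receptor, fell in WT cells from 51.7 ± 2.24 to 16.2 ± 0.499 FPKM with FBS (log2 fold change -1.71, adjusted p = 8.45e-10). Spred3 fell by 1.22 (adjusted p = 7.92e-06), whereas Lrig1, another receptor inhibitor, rose by 1.39 (adjusted p = 1.99e-06) and the RAS GTPase-activating protein Rasa3 by 0.67 (adjusted p = 3.1e-07). Of 13 tested genes among 14 other ETS factors, 5 rose and 4 fell in WT cells with either treatment. With FBS this was close to the shares of all genes that rose (33.7%) and fell (32.7%) in WT cells. In KO cells 6 rose and 4 fell with FBS (30.3% and 29.5% of all genes), and 4 rose and 4 fell with stretch (30.8% and 30.7%). Etv1, the third PEA3 factor, rose in WT cells with FBS by 2.02 (adjusted p = 8.32e-05), from 0.945 ± 0.112 to 3.93 ± 1.02 FPKM, in the direction of Etv5 and not of Etv4. Etv3, an ETS repressor, rose by 1.71 (adjusted p = 1.25e-10), while Elk3 fell by 1.07 (adjusted p = 7.43e-09) and Ets1 by 0.66 (adjusted p = 4.2e-07).

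Of the list of 14 genes known as outputs of ERK, more fell than rose. In WT cells with FBS 11 of 12 tested genes fell and 1 rose (median log2 fold change -1.23). Of the 11, 7 fell by at least 2-fold, as did 7.14% of all genes. With stretch 11 fell and none rose in WT cells (median -1.86). Phlda1 fell from 208.0 ± 6.38 to 17.8 ± 0.734 FPKM with FBS (-3.58, adjusted p = 1.09e-11), and Plaur, the urokinase receptor, from 456.0 ± 40.4 to 71.5 ± 4.79 (-2.71, adjusted p = 1.28e-09). The early response gene Ier3 fell by 2.61 (adjusted p = 3.51e-10) and the ephrin receptor Epha2 changed by -1.87 (adjusted p = 6.62e-10). In KO cells 6 of 13 fell and 2 rose with FBS, and 8 fell and 1 rose with stretch. The 28 genes of the cascade itself, from receptors to ERK and RSK kinases, gave counts near those of all genes in WT cells. There 11 rose and 8 fell with FBS (33.7% and 32.7% of all genes), and 9 rose and 11 fell with stretch (34.6% and 32.3%). In KO cells 10 rose and 7 fell with FBS (30.3% and 29.5%), and 11 rose and 6 fell with stretch (30.8% and 30.7%). Only Rps6ka2, an RSK kinase, moved by at least 2-fold in WT cells with FBS (1.2, adjusted p = 8.66e-07). The phosphatase Ptpn11 fell by 0.76 (adjusted p = 3.01e-08), the adaptor Gab1 by 0.75 (adjusted p = 2.53e-05) and the receptor Fgfr1 by 0.71 (adjusted p = 1.14e-07).

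**Figure D5:**
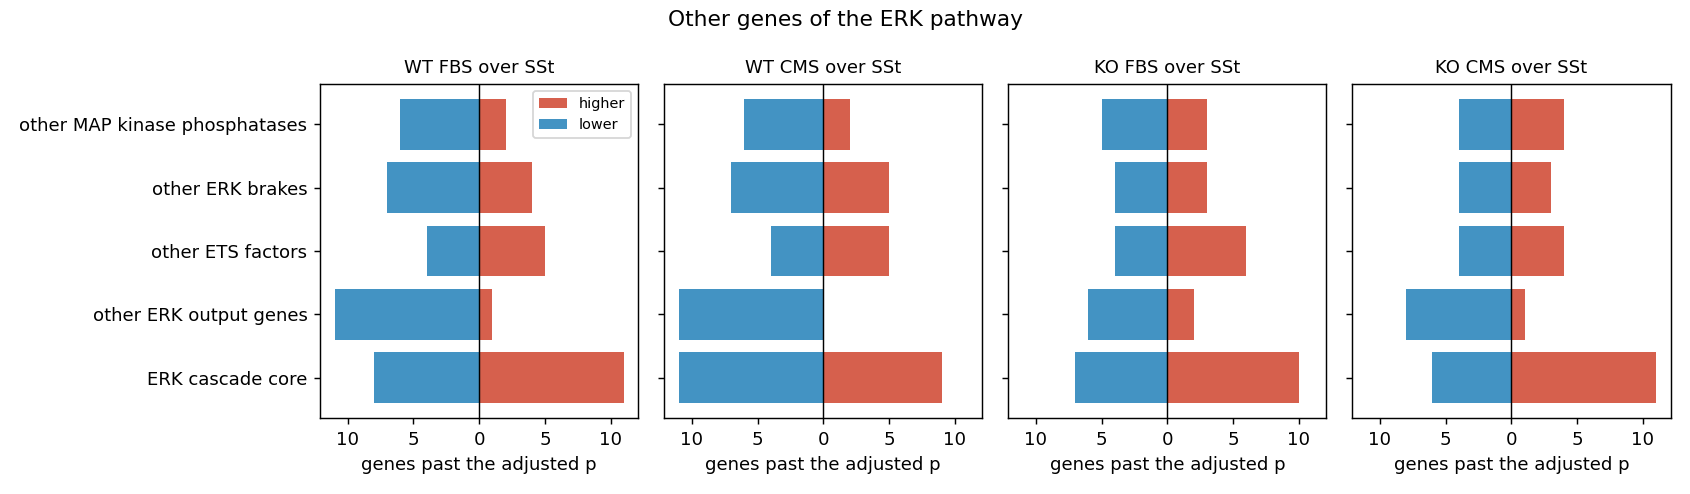
Genes of each list (y axis) that rose (red, to the right) or fell (blue, to the left) past an adjusted p of 0.05, counted on the x axis, in the 4 comparisons with SSt. The ERK output genes lie almost wholly on the falling side in WT cells, 11 genes against 1 or none, while the cascade core extends to both sides.

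Pearson correlations of log2(CPM + 1) over the 18 libraries, where CPM is counts scaled to library size, were used to find the genes most like each of the 9, as a description. The libraries share treatments and genotypes, so these values mostly reflect the 6 group means. Spry4 was most like Nr4a2, an immediate-early orphan nuclear receptor, and Pld1, a phospholipase (0.994 each), then Wdr1 (0.991). Etv5 was most like Dhcr7, an enzyme of cholesterol synthesis (0.989), and Fads1, a fatty acid desaturase (0.986). Dusp5 was followed most closely by Fxr2 (0.987), F13a1 (0.984) and Arf1 (0.983), and Etv4 by Rab32 (0.986), Il4r (0.977) and Nid2 (0.976). For Dusp6 the closest were Ehd4 (0.978), St3gal4 (0.97) and Notch1 (0.967). Spry2 was most like Errfi1 of the brakes above (0.961), then Kifc3 (0.96) and Pomgnt1 (0.957). Likeness was lower for Spred1 (Map3k14, 0.929), Spred2 (Celf1, 0.908) and Spry1 (0.799 at most).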

How the data were processed

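Bulk RNA was measured in 18 libraries. The authors deposited raw read counts and FPKM values per gene, in a table for each genotype. Of aligners and builds, the submitters' notes list only Bowtie 0.12.2 and mm10, whereas the identifiers are those of rat genes, so no coordinates of the tables are printed. The counting program is not given in the sources used here. A count of 0 stands in the tables as 0.0001 FPKM.

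Groups came from the labels. Counts were tested by edgeR 4.0.16 (quasi-likelihood F test, TMM scaling, R 4.3.3), within each genotype or over all 18 libraries, on genes at 1 FPKM or more in at least 3 libraries. P-values were adjusted by Benjamini-Hochberg over all tested genes. The SE given for an edgeR log2 fold change was derived from the test, as its absolute value divided by the square root of F. The code was tested on simulated data. Alternatives were other scalings and filters, DESeq2 1.42.0, limma 3.58.1 on log2(FPKM + pseudocount), a replicate block and leaving out each library. Depth was 56083000 to 71847969 counts. The genes and lists were chosen with earlier results of these data known. Up to 4 genes of a list are named, those with the largest change in WT cells with FBS past the adjusted p. Of the genes most like each member, up to 3 are named, and 1 is not reported here.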

Additional observations from a re-analysis of the deposited data

Results flagged for a closer look

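For 5 of the genes the response differed between WT and KO cells in a direct test (edgeR, WT log2 fold change minus KO log2 fold change, adjusted over all tested genes). With FBS the differences were -0.35 for Dusp6, -1.26 for Spry4, -0.94 for Etv4 and 0.56 for Etv5. With stretch they were -0.88 for Dusp5, 0.37 for Dusp6, -1.45 for Spry4, -0.47 for Etv4 and 0.44 for Etv5. The same test passed for 35.7% of 13317 genes with FBS and 44.8% with stretch, so 4 and 5 of 9 lie near the background. The Etv4 difference for stretch passed in 10 of 18 fits with 1 library left out. Dusp6 is the gene whose difference changed sign between the treatments. Groups of 3 libraries were too small for a test of single outlying libraries.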

How the results depend on the processing

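No log2 fold change of the 9 genes that was past the threshold changed sign under any alternative run. Of 969 values under other settings 908 kept their side of the threshold, 44 lost it and 17 gained it, and of 1296 values with 1 library left out 1218 kept it, 68 lost it and 10 gained it. In WT CMS over FBS, where 0 genes passed, DESeq2 gave 1, a fit of only the 2 groups gave 1 (Spry1), and leaving out a library gave 0 to 1, the 1 being Spry1 without WT SSt replicate 2. In KO over WT under SSt, where 6 genes passed, upper-quartile scaling gave 3, limma gave 3 with a pseudocount of 1 and 3 with 0.1, and leaving out a library gave 3 (without KO SSt replicate 1) to 6. In KO over WT in FBS, where 4 passed, a fit of only the 2 groups gave 2, Spry4 (adjusted p = 0.0754) and Spred1 being lost. The causes were not tested.

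Under other settings, calls lost in at least 1 were Spred2 in WT FBS over SSt, Spry1 in WT CMS over SSt, Spred1 in KO FBS over SSt, Dusp5 in KO CMS over FBS, Etv4 in the stretch difference, Dusp5, Spry2 and Spred2 in KO over WT under SSt, and Spred1 and Spry4 in KO over WT in FBS. Calls gained in at least 1 were Spry1 and Spry2 in WT CMS over FBS, Spred2 in KO FBS over SSt and Spry2 in the FBS difference. Spred1 in the stretch difference and Spred2 in KO over WT under CMS were gained as well. Replicate numbers did not pair the libraries: deviations of libraries with the same number correlated at -0.046 to 0.051 in WT and -0.237 to 0.168 in KO cells, over 0.1 in 0 and 1 of 9 pairs. With the replicate block, 8, 8, 7 and 8 genes passed in the comparisons of FBS and CMS with SSt in WT and then KO cells, and 4 in KO over WT under SSt. Dusp4, at 38 to 95 counts a library, was too low to test at this filter.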
